A study of Mus musculus with 96 samples.

Results

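The EGF family genes described here are 5 ligands (Areg, Ereg, Hbegf, Tgfa and Btc), 3 receptors (Egfr, Erbb2 and Erbb3) and 2 inhibitors of receptor signalling (Lrig1 and Errfi1). They were taken by symbol from the expression tables of mouse intestinal organoids, and all 10 were found among the 55536 gene IDs. Organoids are epithelial cultures that grow from intestinal stem cells, here derived from C57BL/6 mice. Expression was measured by RNA-seq in 4 genotypes. Control organoids were labelled APC+/+;BMAL1+/+ and Bmal1-null organoids APC+/+;BMAL1-/-. Apc-min organoids, described by the labels as adenoma organoids, were APCmin/-;BMAL1+/+, and Apc-min Bmal1-null organoids were APCmin/-;BMAL1-/-. All groups shared 1 h of 0.1 µM dexamethasone, a glucocorticoid that brings the clocks of cells to a common phase, and were collected every 2 h from 24 to 46 h afterwards. The tables hold 22 libraries per genotype, with 1 or 2 at each of the 12 time points. The medium was EN for cultures with the Apc-min allele and ENR for those without it, so a difference between Apc genotypes cannot be told apart from a difference between media. Both media are named for EGF and Noggin, and ENR also for the Wnt agonist R-spondin. By the names of the media, every culture received EGF protein from outside.

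EGF family ligands are made as membrane proteins and released by metalloproteases of the ADAM family. They bind ErbB receptors, which pair with each other, become phosphorylated and switch on the RAS-MAPK and PI3K pathways. EGFR binds all 5 ligands described here, ERBB2 has no known ligand and acts as a partner, and ERBB3 binds neuregulins and signals mainly through its partners. LRIG1 promotes the breakdown of ErbB receptors and marks stem cells of the intestinal crypt, and ERRFI1 (also called MIG6) blocks the EGFR kinase as a feedback inhibitor. In the intestine this pathway drives the division of crypt cells, and Paneth cells and the surrounding stroma supply ligands. The clock factor BMAL1, encoded by Arntl, binds E-box sequences with its partner CLOCK, while APC keeps Wnt signalling in check.

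Depth averaged 35.9 M uniquely mapped reads ± 3.94 (SD, n = 88), with the shallowest library at 28.8 M and the deepest at 48.1 M. Arntl averaged 14.9 TPM ± 2.74 in control, 8.67 ± 1.14 in Bmal1-null, 11.1 ± 3.44 in Apc-min and 4.86 ± 2.42 where both alleles were mutant (SD, n = 22 each). A pair of libraries went against their Bmal1 labels. An axis over 825 genes was set to 0 at the mean of the other 21 Apc-min libraries and to 1 at the mean of the other 21 libraries of the Apc-min Bmal1-null genotype. Replicate 1 labelled Apc-min at 28 h scored 0.983 on it, against -0.281 to 0.244 for the rest of its genotype. Replicate 1 labelled Apc-min Bmal1-null at 28 h scored -0.22, against 0.956 to 1.06 for the rest. Neither was relabelled or dropped, and calls of the 10 genes that change without the pair are given both ways. Each genotype had 2 organoid lines, but no label ties a library to a line, so libraries and not lines are the units behind the p-values. Libraries of each genotype and time point are also numbered, and those with the lower and with the higher number are called library sets here. Epithelial markers were present in every genotype, with all 8 of the list at a mean of 1 TPM or more. The summed level of 6 fibroblast markers stayed between 0 and 1.04 TPM. Enterocyte and goblet cell markers were low in Apc-min organoids. The sum of 8 enterocyte markers ran from 4960 to 7980 TPM in control and from 4.21 to 46.5 TPM in Apc-min organoids, and that of 7 goblet cell markers from 6630 to 8980 and from 63.8 to 323 TPM. The sum of 8 Paneth cell markers ran from 15200 to 26700 and from 420 to 3960 TPM, while Mmp7 and Pla2g2a of that list averaged 465 and 35 TPM in control and 1840 and 189 TPM in Apc-min organoids. The sum of 5 tuft cell markers had medians of 9.02 and 33.4 TPM, with Avil alone at 1 TPM or more in Apc-min organoids (63.2 TPM on average, against 2.41 TPM in control). The other markers of that list were lower in Apc-min organoids, namely Dclk1 (1.9 and 0.157 TPM), Trpm5 (2.68 and 0.27), Pou2f3 (1.81 and 0.206) and Gfi1b (0.267 and 0.0686).

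TPM values (transcripts per 1 M) are scaled by gene length, so levels can be compared between genes. Amphiregulin (Areg) was the most abundant of the 10 genes in control organoids, with a mean of 161.5 TPM ± 20.9 (SD, n = 22). Its lowest control library, at 132 TPM, lay above the highest control library of every other gene of the 10, of which Lrig1 reached 96.7 TPM. Next in order came the inhibitor Lrig1 at 80.4 TPM ± 7.05, the receptors Erbb2 at 69.4 ± 11.2 and Erbb3 at 54.6 ± 14.7, and the inhibitor Errfi1 at 40.7 ± 6.86. The ranges over control libraries of neighbours in this order from Lrig1 to Errfi1 overlapped. Epiregulin (Ereg) averaged 20.6 TPM ± 5.83, Tgfa 17.7 ± 3.60, Hbegf 14.5 ± 1.66 and Btc 12.03 ± 2.01. Egfr was the lowest at 8.31 TPM ± 2.27. Each of these last 5 genes overlapped the next in its range over control libraries. The ligands beside these 5 were low in control organoids: Egf averaged 1.35 TPM, Nrg4 0.913 and Nrg2 0.704, and Epgn, Nrg1 and Nrg3 stayed at or under 0.29 TPM in every control library. Erbb4, the fourth receptor of the family, did not exceed 0.08 TPM in any library.

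**Figure D1:**
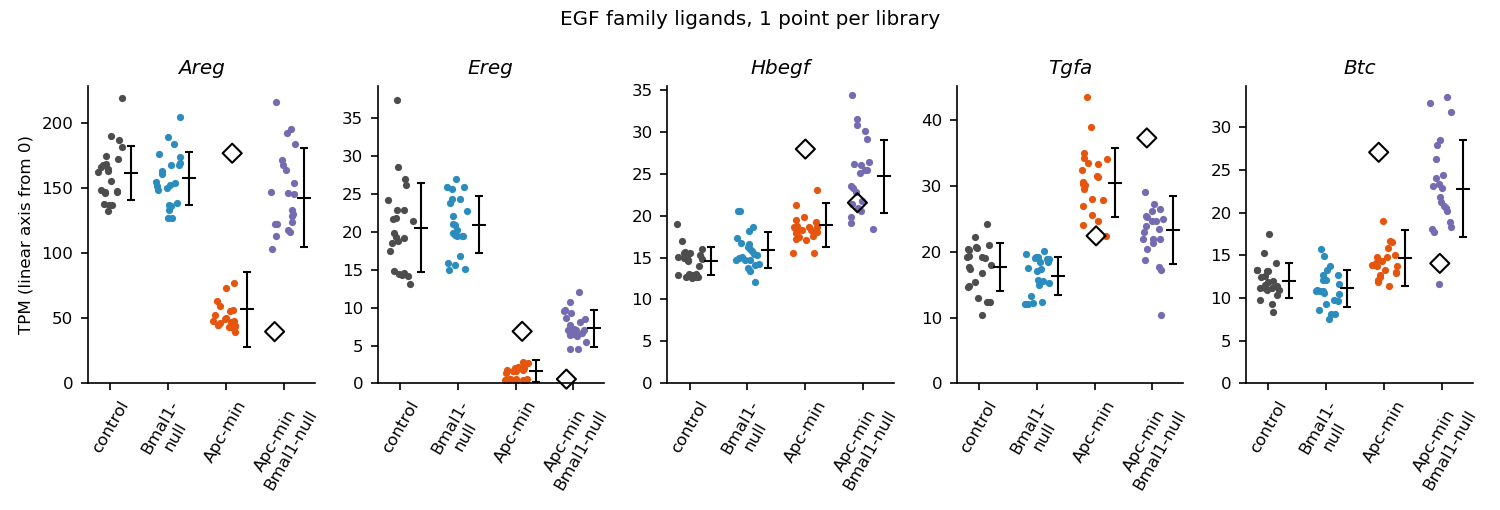
TPM of the 5 ligands (vertical axes, linear and starting at 0) in every library of the 4 genotypes (horizontal axis), with mean ± SD as bars beside the points. Open diamonds are the 28 h libraries that went against their Bmal1 labels. Areg and Ereg lie low in Apc-min organoids, with Ereg between 0.33 and 2.84 TPM apart from its diamond.

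**Figure D2:**
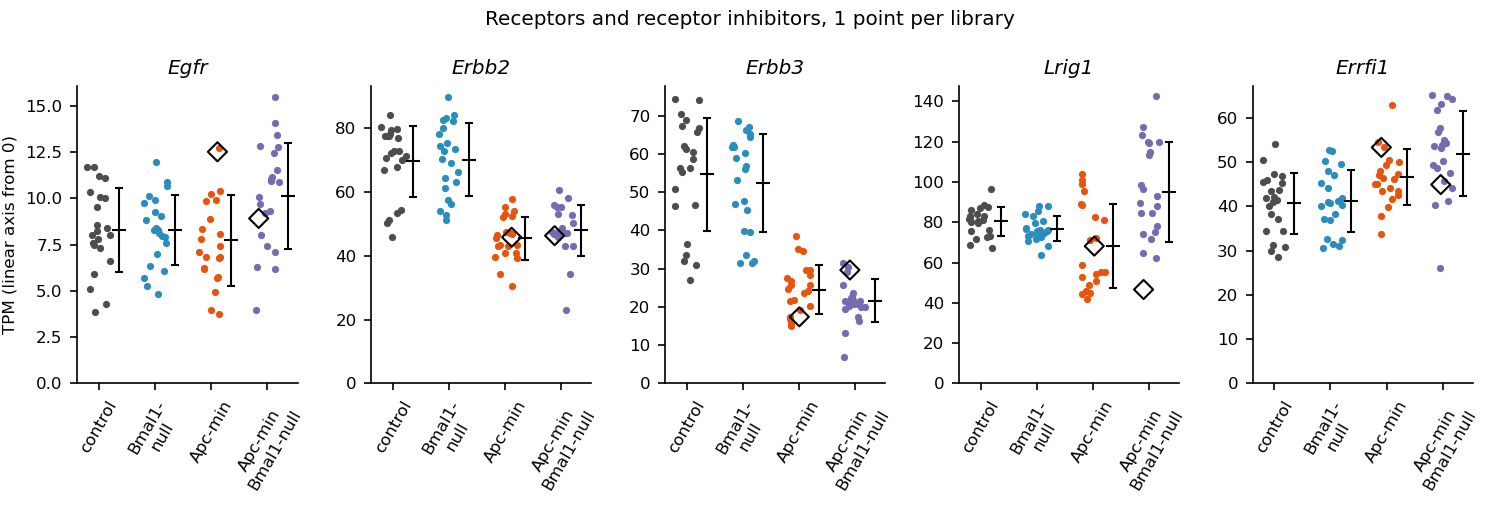
TPM of the receptors Egfr, Erbb2 and Erbb3 and of the inhibitors Lrig1 and Errfi1 (vertical axes, linear and starting at 0) in every library of the 4 genotypes, with mean ± SD as bars and the doubted libraries as open diamonds. Erbb3 lies between 26.9 and 74.4 TPM in control organoids and between 6.81 and 38.5 TPM in both Apc-min genotypes.

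Without Bmal1 on a wild-type Apc background, 0 of the 10 genes passed the limma test at a Benjamini-Hochberg adjusted p under 0.05, where 2.09% of the 12654 genes tested were called higher and 1.47% lower. At an unadjusted p under 0.05 the count was 1 member and 1339 genes. The library ranges of all 10 members overlapped between the genotypes, as did those of all but 0.15% of the genes. Differences are given as log2 of TPM + 1, mutant minus wild type, with the standard error of the fit, and folds are on the same TPM + 1 scale. Areg ran from 132 to 219 TPM with a median of 163 in control organoids and from 127 to 204 TPM with a median of 154 in Bmal1-null organoids. Its difference was -0.026 ± 0.034 (adjusted p = 1), with a 95% interval of 0.937-fold to 1.03-fold. Hbegf came nearest to a call, with medians of 14.8 and 15.4 TPM, a higher mean in Bmal1-null organoids at 11 of 12 time points and a difference of 0.13 ± 0.040 (adjusted p = 0.0823). It passed with each library rescaled by its median ratio to the average library (0.12, adjusted p = 0.0362), and also without control 32 h replicate 1 or without Bmal1-null 34 h replicate 1, with an adjusted p from 0.00996 to 0.147 over the 44 libraries left out in turn. The widest intervals were those of Erbb3, from 0.812-fold to 1.15-fold, and Egfr, from 0.864-fold to 1.18-fold. The median difference of the 10 members was -0.0076, against 0.0036 for all genes tested.

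On the Apc-min background 8 of the 10 members differed with Bmal1 loss, 7 of them upward. The background was wide, with 24.6% of 12885 genes called higher and 35.7% lower. The share of called genes that were higher was 40.8%, and 53.3% with each library rescaled by its median ratio. The median difference was 0.36 for the members and -0.038 for all genes tested. The ligands Areg and Ereg differed most. Areg ran from 39.1 to 177 TPM with a median of 48.2 in Apc-min organoids and from 39.8 to 216 TPM with a median of 139 in Apc-min Bmal1-null organoids. The 2 doubted libraries set the 177 and the 39.8. Without them the ranges were 39.1 to 76.9 and 103 to 216 TPM, which do not overlap. The difference was 1.297 ± 0.14 (adjusted p = 2.72e-09), or 2.46-fold, and 1.47 ± 0.050 without the pair. Ereg ran from 0.33 to 6.88 TPM with a median of 1.64 and from 0.57 to 12.1 TPM with a median of 7.08. Without the pair its highest Apc-min library was at 2.84 TPM and its lowest Apc-min Bmal1-null library at 4.51 TPM, so the groups were again apart. Its difference was 1.69 ± 0.20 (adjusted p = 2.22e-08), or 3.24-fold, and 1.89 ± 0.14 without the pair. Areg and Ereg were the 2 members whose ranges separated without the pair, where 7.14% of all genes did. With the pair none separated, and neither did any other gene (0.0% of all genes).

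Of the other ligands, Btc and Hbegf were higher and Tgfa was lower without Bmal1 in Apc-min organoids. Betacellulin (Btc) had medians of 13.9 and 22.3 TPM, with ranges of 11.4 to 27.1 and 11.7 to 33.5 TPM that overlapped. The doubted library set the 27.1, and the next highest was at 19.01 TPM. It differed by 0.58 ± 0.089 (adjusted p = 1.69e-06), or 1.49-fold. Hbegf, the heparin-binding ligand, had medians of 18.4 and 24.3 TPM and differed by 0.35 ± 0.053 (adjusted p = 1.79e-06), or 1.27-fold. Both were higher at 11 of 12 time points, and at 12 of 12 without the doubted pair. Tgfa, which encodes TGF alpha, had a median of 30.5 TPM with Bmal1 and of 23.7 TPM without it. It was lower by 1.28-fold (-0.36 ± 0.084, adjusted p = 0.000446) and was higher at only 1 of 12 time points, or 0 without the pair, with overlapping ranges. Ereg, Areg, Hbegf, Btc and Tgfa passed within the lower-numbered and within the higher-numbered libraries alone. When each library set was averaged to 1 value, a fit chosen after seeing the data that leaves 2 values per genotype, Areg alone passed (1.35 ± 0.13, adjusted p = 0.0194), and Ereg was at an adjusted p of 0.0503.

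Of the receptors, Egfr alone passed in the Apc-min background. It was higher by 0.37 ± 0.11 (adjusted p = 0.0061), or 1.29-fold, with medians of 7.28 and 10.5 TPM. The library sets differed here: the value was 0.66 in the lower-numbered libraries and 0.12 in the higher-numbered ones, where it did not pass (adjusted p = 0.341). Erbb2 (0.089 ± 0.070, adjusted p = 0.272) and Erbb3 (-0.12 ± 0.097, adjusted p = 0.292) did not pass. Erbb2 passed with rescaled libraries (0.15, adjusted p = 0.00153) and in the lower-numbered libraries (0.26, adjusted p = 0.0102), and not in the higher-numbered ones, where its value was -0.074. The inhibitor Lrig1 was higher by 0.50 ± 0.11 (adjusted p = 0.000373), or 1.42-fold, with medians of 63.4 and 91.4 TPM. It passed in both library sets, but the sizes differed, with 0.83 in the lower-numbered (adjusted p = 0.00319) and 0.29 in the higher-numbered libraries (adjusted p = 2.06e-05). With library set means as units it did not pass (adjusted p = 0.299). Errfi1 was higher by 0.16 ± 0.066 (adjusted p = 0.0383). That call ended when any 1 of 14 of the 44 libraries was left out, with an adjusted p from 0.00708 to 0.0787, and it did not pass in either library set alone.

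Markers of other cells moved with Bmal1 loss in Apc-min organoids as well. The sum of 8 enterocyte markers ran from 4.21 to 46.5 TPM with Bmal1 and from 9.62 to 54.9 TPM without it (4.21 to 15.2 and 40.9 to 54.9 TPM without the doubted pair). In each genotype 2 of the 8 averaged 1 TPM or more, and Fabp2 carried most of the sum, at 6.50 and 41.1 TPM. Alpi also averaged more without Bmal1 (0.342 and 3.39 TPM), whereas Slc5a1 was at 1.37 and 0.971 and Apoa1 at 0.402 and 0.202 TPM. The sum of 7 goblet cell markers had medians of 119 and 283 TPM, with Tff3 at 47 and 229 TPM and Fcgbp, in the other direction, at 74.5 and 8.53 TPM. That of 6 enteroendocrine markers had medians of 2.18 and 6.73 TPM. The sum of 8 Paneth cell markers ran from 420 to 3960 TPM with a median of 2160 and from 341 to 2350 TPM with a median of 566, and without the pair from 1290 to 3960 and from 341 to 1040 TPM. Mmp7 carried most of it, at 1840 and 563 TPM. The sum of 6 immune markers ran from 7.77 to 42.6 TPM and from 3.35 to 20.1 TPM (13.2 to 42.6 and 3.35 to 11.5 TPM without the pair), with 2 and 1 of the 6 at 1 TPM or more. The sum of 7 stem cell markers ran from 320 to 674 TPM and from 203 to 476 TPM, with 6 of 7 at 1 TPM or more in both. Olfm4 of that list averaged 0.022 and 0.016 TPM, Lgr5 10.9 and 3.04 TPM, and Ascl2 103 and 88.4 TPM. Sox9 went in the other direction, at 22.5 and 30.0 TPM. The part of these markers in the differences of the EGF family genes was not tested. In these bulk samples fewer cells of a type and less RNA per cell cannot be told apart.

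**Figure D3:**
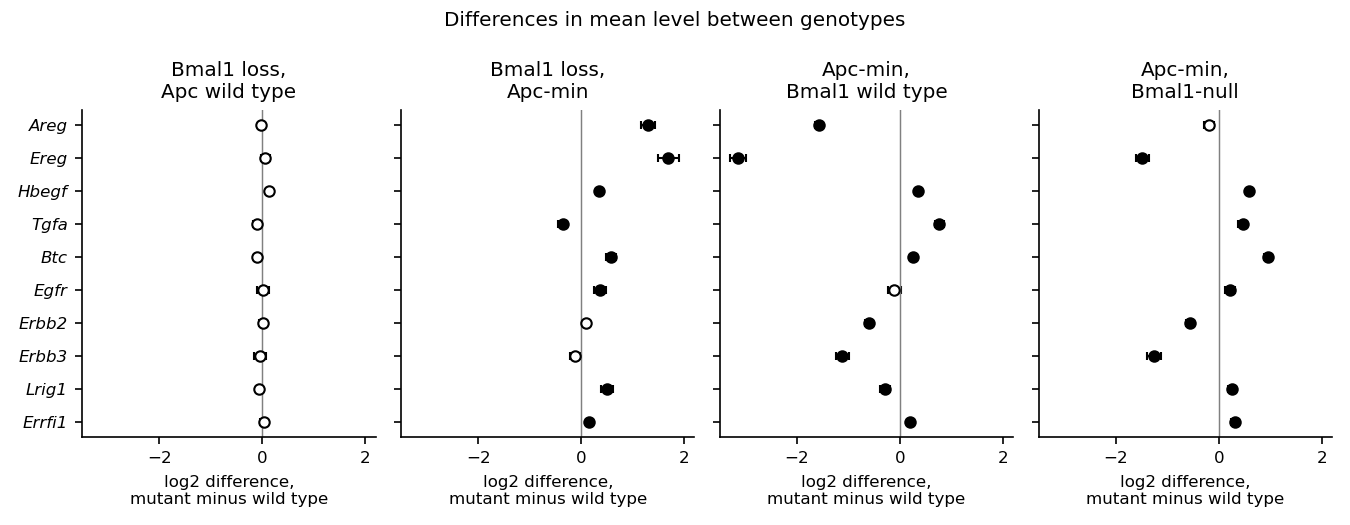
Log2 differences of TPM + 1, mutant minus wild type (horizontal axis), of the 10 genes (rows) in the 4 genotype comparisons (panels), with bars for the standard error. Filled points passed at an adjusted p under 0.05. The Bmal1 panel of Apc wild-type organoids holds no filled point, and that of Apc-min organoids 8.

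The Bmal1 effect differed between the Apc backgrounds for 6 of the 10 members by the interaction test over all 88 libraries. It was more positive on the Apc-min background for 5 members, where 18.1% of 13846 genes were, and more negative for 1, where 29.6% were. The share of called genes that were more positive was 38.0%, and 52.8% after rescaling. The interaction was 1.35 ± 0.14 for Areg (adjusted p = 3.22e-13), 1.65 ± 0.21 for Ereg (5.31e-10), 0.68 ± 0.11 for Btc (1.53e-07), 0.55 ± 0.12 for Lrig1 (6.47e-05) and 0.23 ± 0.067 for Hbegf (0.0031). For Tgfa it was -0.29 ± 0.12 (adjusted p = 0.0461), and this call ended without any 1 of 39 of the 88 libraries (adjusted p from 0.0127 to 0.0757) and in either library set alone. Hbegf was not called in the lower-numbered libraries (0.24, adjusted p = 0.0501). Egfr did not pass (0.33 ± 0.16, adjusted p = 0.0832). It passed without the doubted pair (0.37, adjusted p = 0.0495), after rescaling (0.41, adjusted p = 0.00505) and in the lower-numbered libraries (0.81, adjusted p = 0.00264), and its sign turned in the higher-numbered ones (-0.11, adjusted p = 0.706). It also passed without 1 of 3 libraries, namely 36 h replicate 2 or 38 h replicate 1 of control or 32 h replicate 2 of the Apc-min Bmal1-null genotype (adjusted p from 0.0372 to 0.131 over all left out in turn). Errfi1 (0.12 ± 0.10, adjusted p = 0.358) passed after rescaling (0.20, adjusted p = 0.00509). Erbb2 (0.046 ± 0.11, adjusted p = 0.76) and Erbb3 (-0.13 ± 0.18, adjusted p = 0.587) did not pass. With library set means as units, Areg alone passed (adjusted p = 0.00494).

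Areg, Btc and Lrig1 were among the members that were higher without Bmal1 in Apc-min organoids and not called in Apc wild-type organoids. The DNA before their starts is shown, 250 bases each, from RefSeq on GRCm38.p6. Areg (ENSMUSG00000029378) lies on the plus strand of chromosome 5 at 91139599 to 91148432 and the window at chr5:91139349-91139598. Btc (ENSMUSG00000082361) lies on the minus strand at 91357261 to 91402994 and its window at chr5:91402995-91403244. Lrig1 (ENSMUSG00000030029) lies on the minus strand of chromosome 6 at 94604529 to 94700158 and its window at chr6:94700146-94700395, since its RefSeq start lies slightly inside the GENCODE gene. Ereg (ENSMUSG00000029377) starts 65 kb before the start of Areg, at 91074622 to 91093646, so that Ereg, Areg and Btc sit within 328 kb of chromosome 5. Sequences run 5′ to 3′, and capitals mark the cyclic AMP response element TGACGTCA and the TATA box TATAAA.
Areg: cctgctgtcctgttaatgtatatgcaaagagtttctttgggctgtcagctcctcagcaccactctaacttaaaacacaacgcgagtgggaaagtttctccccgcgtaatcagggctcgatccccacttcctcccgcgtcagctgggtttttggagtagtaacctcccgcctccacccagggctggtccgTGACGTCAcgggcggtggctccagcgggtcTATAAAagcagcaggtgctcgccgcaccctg
Btc: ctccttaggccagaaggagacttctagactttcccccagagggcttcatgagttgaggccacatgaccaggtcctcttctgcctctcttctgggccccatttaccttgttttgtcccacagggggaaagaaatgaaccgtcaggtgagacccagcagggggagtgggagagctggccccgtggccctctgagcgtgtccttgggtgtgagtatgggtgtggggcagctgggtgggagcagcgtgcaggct
Lrig1: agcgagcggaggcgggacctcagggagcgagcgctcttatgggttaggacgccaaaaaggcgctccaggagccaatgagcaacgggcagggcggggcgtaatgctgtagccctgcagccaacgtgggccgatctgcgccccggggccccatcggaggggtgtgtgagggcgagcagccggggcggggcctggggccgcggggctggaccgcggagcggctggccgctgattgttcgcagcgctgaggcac
Promoter windows were matched for 7 of the 10 members, Ereg and Erbb3 not among them, in 8 windows. The E-box CACGTG, searched on both strands, was in 0 of these 8 and in 6.02% of all 32851 windows. TGACGTCA, which reads the same on both strands, was in the windows of Areg and Errfi1 and in 1.55% of all. In Areg its first base lay 61 bases before the start. TATAAA on either strand was in the same 2 genes and in 12.4% of all, and in Areg it began 31 bases before the start. The TCF motif CTTTGAT, on either strand, was in 0 of the 8 and in 3.21% of all. None of these motifs overlapped another in the windows shown. A match of letters describes the window and says nothing of binding.

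Apc-min organoids differed from control organoids in 9 of the 10 members. Of these, 4 were higher, where 50.5% of 13663 genes were called higher, and 5 were lower, where 31.1% were. The median difference of all genes was 0.17 and fell to 0.017 when each library was rescaled by its median ratio, a shift of 0.15, and the median of the members was -0.20. The share of called genes that were higher was 61.8%, and 50.7% after rescaling. The Apc-min libraries are also those of the Bmal1 comparison above, so the values of the 2 comparisons are not independent. Medium and library series moved with the Apc genotype. Reads unmapped as too short averaged 1.299% in Apc-min and 6.73% in control libraries, and the enterocyte, goblet, Paneth and tuft cell markers differed as given above. The sum of 7 fetal and regenerative epithelium markers ran from 177 to 532 TPM in control and from 4000 to 4930 TPM in Apc-min organoids, and that of 7 stem cell markers from 746 to 1380 and from 320 to 674 TPM. Of the stem cell list, Olfm4 (577 TPM in control and 0.0218 in Apc-min), Smoc2 (221 and 46.7), Lgr5 and Sox9 averaged less in Apc-min organoids. Ascl2 (47.7 and 103 TPM), Axin2 (111 and 219) and Rnf43 (45.4 and 100) averaged more. The part of any of these in the differences below was not tested.

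Among the ligands, Ereg and Areg were lower and Tgfa, Hbegf and Btc higher. Ereg was 8.87-fold lower in Apc-min than in control organoids (-3.15 ± 0.15, adjusted p = 3.76e-20), and its control range of 13.1 to 37.4 TPM lay wholly above the Apc-min range. Areg was 2.98-fold lower (-1.57 ± 0.084, adjusted p = 8.31e-19). Its ranges overlapped through the doubted Apc-min library at 177 TPM and separated without it. Ereg was thus the 1 member with separate ranges over all libraries, as were 28.1% of all genes, and with Areg 1 of 2 without the pair, where 30.8% of genes were. Tgfa was 1.70-fold higher (0.76 ± 0.087, adjusted p = 8e-10), with a range of 10.4 to 24.3 TPM and a median of 18.5 in control and of 22.4 to 43.5 TPM and a median of 30.5 in Apc-min organoids. Hbegf was 1.28-fold higher (0.36 ± 0.050, adjusted p = 5.37e-08), and both were higher at 12 of 12 time points. Btc was 1.20-fold higher (0.26 ± 0.065, adjusted p = 0.000496), a call that was lost after rescaling (0.10, adjusted p = 0.0981) and in the lower-numbered libraries alone (0.21, adjusted p = 0.0786).

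Both partner receptors were lower in Apc-min organoids. Erbb3 was 2.18-fold lower (-1.12 ± 0.13, adjusted p = 7.66e-10), with medians of 57.6 and 24.5 TPM and ranges of 26.9 to 74.4 and 15.1 to 38.5 TPM that overlapped. Erbb2 was 1.52-fold lower (-0.61 ± 0.076, adjusted p = 4.8e-09), with medians of 72.3 and 45.6 TPM. Each was lower at 12 of 12 time points. Egfr did not pass (-0.11 ± 0.12, adjusted p = 0.403). It passed after rescaling (-0.25, adjusted p = 0.0147) and in the lower-numbered libraries (-0.50, adjusted p = 0.0224), and had the other sign in the higher-numbered ones (0.24, adjusted p = 0.0648). Lrig1 was 1.22-fold lower (-0.29 ± 0.099, adjusted p = 0.00762). The library sets disagreed in size, with -0.71 in the lower-numbered and -0.012 in the higher-numbered libraries, the latter not called (adjusted p = 0.873). Errfi1 was 1.15-fold higher (0.20 ± 0.072, adjusted p = 0.0114), which rescaling reduced to 0.037 (adjusted p = 0.457).

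On the Bmal1-null background, Apc-min also came with 9 calls, 6 higher and 3 lower, where 45.7% of 13404 genes were higher and 38.8% lower. This comparison shares no library with the one in Bmal1 wild-type organoids, and each shares its libraries with the Bmal1 comparisons. Areg was the member that did not pass: it averaged 157 TPM ± 20.6 with wild-type Apc and 142 TPM ± 37.9 with Apc-min (SD, n = 22 each), a difference of -0.19 ± 0.094 (adjusted p = 0.0546). It passed without the doubted pair at a smaller difference (-0.11 ± 0.046, adjusted p = 0.032), after rescaling (-0.26, adjusted p = 0.0476) and when any 1 of 11 of the 44 libraries was left out (adjusted p from 0.0112 to 0.0957). Ereg was 2.80-fold lower (-1.48 ± 0.12, adjusted p = 1.65e-13), with ranges of 14.99 to 26.97 and 0.57 to 12.1 TPM that did not overlap. Btc was 1.94-fold higher (0.96 ± 0.077, adjusted p = 7.62e-14), Hbegf 1.51-fold (0.60 ± 0.049, adjusted p = 9.95e-14) and Tgfa 1.38-fold (0.47 ± 0.091, adjusted p = 1.84e-05). Erbb3 was 2.39-fold lower (-1.26 ± 0.13, adjusted p = 3.8e-11), and its range of 31.51 to 68.7 TPM lay just above the 6.81 to 31.45 TPM of the Apc-min libraries. Ereg and Erbb3 were the 2 members with separate ranges, with and without the pair, where 30.4% and 36.4% of genes had them. Erbb2 was 1.47-fold lower (-0.56 ± 0.081, adjusted p = 9.35e-08).

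Lrig1 had the opposite direction here to that in Bmal1 wild-type organoids, being 1.19-fold higher (0.26 ± 0.072, adjusted p = 0.00145), and the difference between both values is the interaction given above. It was not called after rescaling (0.19, adjusted p = 0.052) or in the lower-numbered libraries (0.14, adjusted p = 0.257). Errfi1 was 1.25-fold higher (0.32 ± 0.072, adjusted p = 0.000128), and not called in the higher-numbered libraries (0.25, adjusted p = 0.115). Egfr was higher by 0.22 ± 0.10 (adjusted p = 0.0444), which ended without the pair (adjusted p = 0.0547), without any 1 of 25 of the 44 libraries (adjusted p from 0.0047 to 0.0962) and in the higher-numbered libraries (0.028, adjusted p = 0.887).

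Levels of some members differed between the library sets of a genotype, given here with no test. In Apc-min organoids Lrig1 ran from 41.8 to 68.2 TPM with a median of 49.7 in the 10 lower-numbered libraries and from 55.6 to 104 TPM with a median of 85.6 in the 12 higher-numbered ones. Ereg ran from 0.33 to 6.88 TPM with a median of 0.52, and from 1.43 to 2.84 TPM with a median of 1.99. Both pairs of ranges overlapped through the doubted library, which set the 68.2 and the 6.88 TPM. Without it the lower-numbered libraries reached 55.25 TPM for Lrig1, just under the 55.55 TPM of the lowest higher-numbered one, and 0.65 TPM for Ereg. The same sets in control organoids had Lrig1 medians of 80.9 and 82.5 TPM, and in Bmal1-null organoids of 76.4 and 75.5 TPM. They were 84.6 and 95.7 TPM with both alleles mutant. The labels do not say whether the sets are the 2 organoid lines, and the 2 cannot be told apart.

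**Figure D4:**
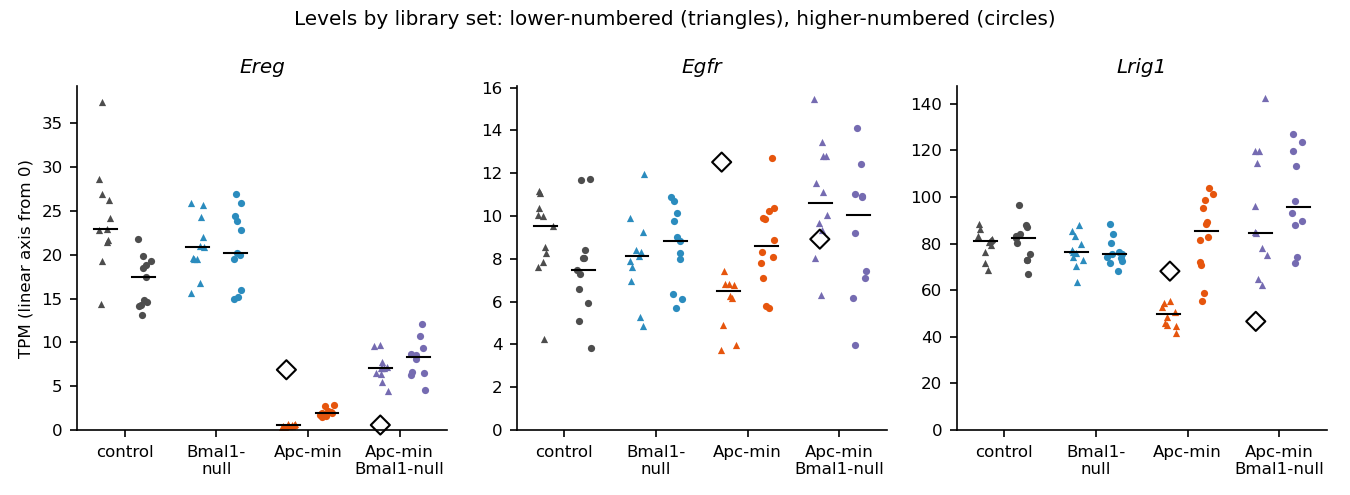
TPM of Ereg, Egfr and Lrig1 (vertical axes, linear and starting at 0) in the lower-numbered (triangles) and higher-numbered (circles) libraries of the 4 genotypes, with lines at the medians and the doubted libraries as open diamonds. Lrig1 in Apc-min organoids has medians of 49.7 and 85.6 TPM in the sets.

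Over time few members changed. A rhythm was tested as a cosine of 24 h, and a time trend as a straight line whose change from 24 to 46 h is given. No member passed the rhythm test in control organoids, where 0.0557% of 12570 genes did, or in Bmal1-null organoids, where 0.0% of 12550 did. At an unadjusted p under 0.05 these counts were 1 member and 1539 genes in control, and 0 members and 864 genes in Bmal1-null organoids. Lrig1 had the lowest p of the 10 in control organoids (amplitude 0.12 ± 0.031 on the log2 scale, peak at 39.7 h, adjusted p = 0.206). In Apc-min organoids 1 member passed, where 12% of 12625 genes did (1513 genes, and 401 without the doubted library). It was Erbb3, with an amplitude of 0.36 ± 0.077 and a fitted peak at 40.2 h (adjusted p = 0.021). In Apc-min Bmal1-null organoids 1 passed, where 2.59% of 12206 genes did. It was Lrig1, with an amplitude of 0.41 ± 0.072 and a peak at 40.8 h (adjusted p = 0.00913). With a linear time term in the fit neither passed (Erbb3 0.16, adjusted p = 1, and Lrig1 0.10, adjusted p = 0.8), and neither passed in a single library set. Lrig1 was also lost after rescaling (0.34, adjusted p = 0.16). Without the doubted library, Areg passed in Apc-min Bmal1-null organoids as well (amplitude 0.33 ± 0.051, adjusted p = 0.00139). Rhythm calls over all genes also rose in that genotype without it, by the counts given with the processing below. In Apc-min organoids Areg and Tgfa joined Erbb3 when 30 h replicate 1 was left out (adjusted p = 0.0258 and 0.0457). The rhythm differed by Bmal1 for 0 of the 10 members on either Apc background, where 0.0395% and 0.0% of genes were called, and 0 members were at an unadjusted p under 0.05, against 237 and 880 genes.

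Lrig1 and Erbb3 passed the trend test in the same genotypes as the rhythm test. In Apc-min Bmal1-null organoids the time trend passed for Lrig1 upward, where 5.62% of 12206 genes rose, and for Hbegf downward, where 2.82% fell. Lrig1 averaged 68.1 TPM at 24 h and 135 TPM at 44 h, its highest mean, and was at 119.9 TPM in the 1 library of 46 h. It rose by 1.096 ± 0.13 from 24 to 46 h (adjusted p = 8.25e-06), and by 1.00 ± 0.094 without the doubted library. The same gene in Apc-min organoids changed by 0.40 ± 0.28 (adjusted p = 0.274), by 0.52 ± 0.13 with the library set in the fit (adjusted p = 0.00357) and by 0.86 in the higher-numbered libraries (adjusted p = 5.21e-06). In control and Bmal1-null organoids its values were 0.24 ± 0.075 and 0.15 ± 0.074 (adjusted p = 0.0991 and 0.242). Hbegf averaged 32.2 TPM at 24 h and 19.6 TPM at 44 h, its lowest mean, and was at 19.79 TPM in the 1 library of 46 h. It fell by 0.58 ± 0.12 (adjusted p = 0.00188), though the fall did not pass in the higher-numbered libraries alone (-0.44, adjusted p = 0.347). In Apc-min organoids the 1 member that passed was Erbb3, upward, where 22.2% of 12625 genes rose and 9.01% fell. Rescaling moved the median trend of all genes there by 0.13 and the share of called genes that rose from 71.2% to 43.9%, and in Apc-min Bmal1-null organoids from 66.6% to 51.1%. Erbb3 in Apc-min organoids still passed after rescaling (0.74, adjusted p = 0.000515). It passed in the higher-numbered libraries (0.95, adjusted p = 0.000932) but not in the lower-numbered ones (0.68, adjusted p = 0.123). It was at 15.7 TPM in the 1 library of 24 h and averaged 31.7 TPM at 38 h, its highest mean, and 30.0 TPM at 46 h. It rose by 0.87 ± 0.17 (adjusted p = 0.00134), and by 0.85 ± 0.18 without the doubted library.

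Areg had negative values in all 4 genotypes and passed in 1. In control organoids, where 0.971% of 12570 genes rose and 1.23% fell, it averaged 204 TPM at 24 h and 147 TPM at 46 h and fell by 0.40 ± 0.090 (adjusted p = 0.0154). That call ended after rescaling (-0.30, adjusted p = 0.285), in either library set alone and without control 24 h replicate 1 (adjusted p = 0.0511). In Bmal1-null organoids, where 3.43% of 12550 genes rose and 3.28% fell, no member passed, and Areg was at -0.30 ± 0.10 (adjusted p = 0.0796). At an unadjusted p under 0.05 the counts there were 1 member and 2776 genes. Areg passed without 28 h replicate 1 or 32 h replicate 1 (adjusted p from 0.0438 to 0.169). With the Apc-min allele it was at -0.69 ± 0.27 (adjusted p = 0.0523), and at -0.56 ± 0.30 where Bmal1 was also lost (adjusted p = 0.318). Without the doubted pair both passed, at -0.42 ± 0.15 (adjusted p = 0.0482) and -0.85 ± 0.082 (adjusted p = 1.4e-07). Ereg (-0.65 ± 0.18, adjusted p = 0.0118) and Btc (-0.62 ± 0.19, adjusted p = 0.0241) then also passed in Apc-min Bmal1-null organoids, and Errfi1 (0.33 ± 0.12, adjusted p = 0.043) in Apc-min organoids. Trend calls over all genes rose as well in Apc-min Bmal1-null organoids without the pair, by the counts given with the processing below. The share of all genes called without the pair is not given for Apc-min organoids. Egfr passed in no genotype with or without the pair. In Apc-min organoids single left-out libraries brought in Tgfa (without replicate 1 of 30 h or 46 h or replicate 2 of 42 h), Hbegf (without 26 h replicate 2) and Erbb2 (without 46 h replicate 1). The trends were not tested for a difference between genotypes.

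**Figure D5:**
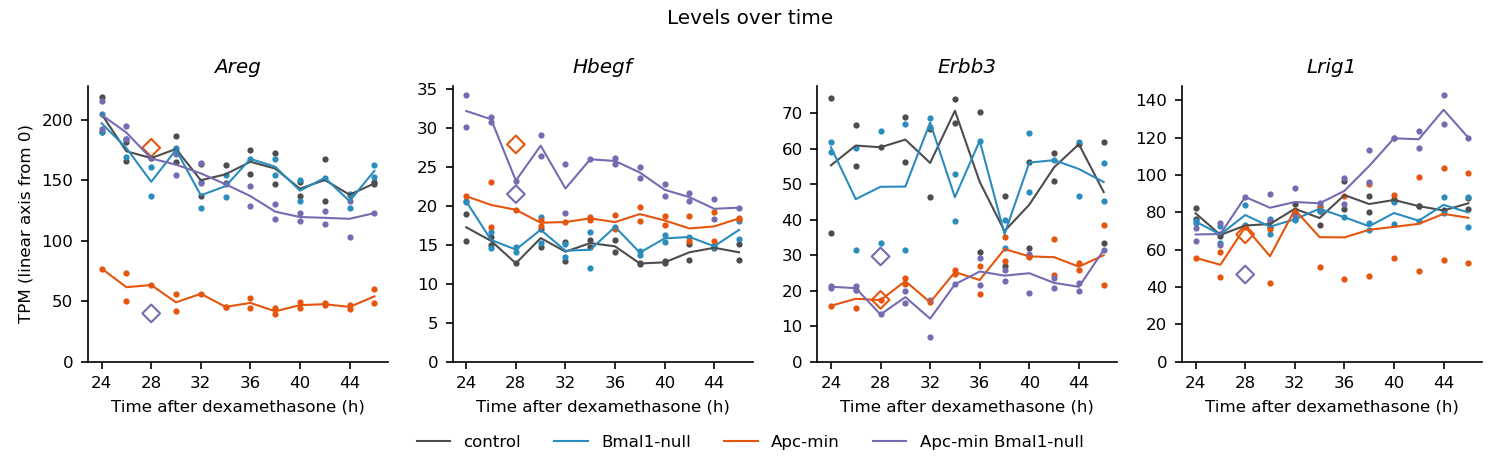
TPM of Areg, Hbegf, Erbb3 and Lrig1 (vertical axes, linear and starting at 0) against time after dexamethasone in h, 1 point per library, with lines through the time point means of the 4 genotypes. Open diamonds are the doubted libraries, which the lines leave out. From 30 h on the Lrig1 line of the Apc-min Bmal1-null genotype lies above the others.

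Other genes of the pathway were followed in 7 lists with 55 genes beside the members. On the wild-type Apc background 2 of the 46 tested were called with Bmal1 loss, both higher, where 2.09% of all genes were higher and 1.47% lower: the feedback phosphatase Dusp6 (0.32 ± 0.056, adjusted p = 0.000197) and the ETS factor Etv4 (0.21 ± 0.043, adjusted p = 0.00155). On the Apc-min background 7 of 50 were higher and 20 lower, against the 24.6% and 35.7% of all genes given above, and their median was -0.066. Genes were tested where their mean reached 1 TPM in either genotype, and counts that hold a gene tested only through its higher genotype are descriptions. Among 6 receptor inhibitors 4 were lower, one of them, Lrig3, a relative of Lrig1, tested only through its Apc-min level (means of 3.36 and 0.50 TPM, -1.55 ± 0.14, adjusted p = 6.96e-11). The next was the ubiquitin ligase Cblb (-0.82 ± 0.12, adjusted p = 8.67e-07). The neuregulins Nrg1 (-0.73 ± 0.15) and Nrg4 (-0.68 ± 0.10) were lower, Nrg4 being tested only through its level in Apc-min organoids (means of 1.93 and 0.772 TPM). Of 10 MAPK feedback regulators, Dusp5 (1.10 ± 0.11) and Dusp6 (0.28 ± 0.071) were higher, and Spry1 (-0.68 ± 0.096) and Spry2 (-0.40 ± 0.054) lower. Of 10 transcriptional targets, 4 were higher, with Fosl1 first (1.04 ± 0.16), and 4 lower, with Jun first (-1.22 ± 0.15).

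In Apc-min against control organoids 32 of 51 tested pathway genes were higher and 7 lower, with a median of 0.34 against 0.17 for all genes, of which 50.5% were called higher and 31.1% lower. Of ligand shedding and trafficking genes, Timp3 and Nkd2 were tested only through their level in Apc-min organoids, and the other 4 were higher, among them the sheddase Adam17 (2.06-fold, 1.04 ± 0.059, adjusted p = 5.19e-18), which averaged 17.2 TPM in control and 36.2 TPM in Apc-min organoids, and its partner Rhbdf1 (1.83-fold). Of the feedback regulators 8 of 10 were higher, with Spry1 (3.84-fold) and Spry2 (2.39-fold) in front, and Dusp5 was 4.48-fold lower. Spry4 of that list was tested only through its level in Apc-min organoids (means of 0.596 TPM in control and 1.90 TPM in Apc-min). Of the targets 7 of 10 were higher, with cyclin D1 (Ccnd1, 6.46-fold), which is also a Wnt target, and Etv5 (4.21-fold) in front. Lrig3 was 6.07-fold lower. Nrg1 averaged 4.06 TPM in Apc-min organoids and did not exceed 0.08 TPM in any control library. Nrg1 and Nrg4 (means of 0.913 and 1.93 TPM) were thus tested only through their level in Apc-min organoids. Egf was tested only through its level in control organoids (means of 1.35 and 0.394 TPM). Counts that hold such genes are descriptions. On the Bmal1-null background 25 of 48 were higher and 16 lower, against 45.7% and 38.8% of all genes, and Fosl1 (7.37-fold higher) and Lrig3 (17.9-fold lower, tested through its Bmal1-null level) differed most in their lists. Nrg1 and Spry4 were tested there only through their Apc-min Bmal1-null level, and Egf only through its Bmal1-null level.

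The genes whose profiles were most like those of the members were sought over the 48 means of genotype and time point, among 12234 genes. The means of a genotype share its medium and library series, and some hold a doubted library, so the correlations are descriptions. For Areg they were Gsta1 (r = 0.967), Gimd1 (0.960) and Anxa10 (0.959), with Gsta1 averaging 212 TPM in control and 32.4 TPM in Apc-min organoids, and 218 TPM where Bmal1 was lost as well. For Ereg they were Nipal1 (r = 0.994), Prkg2 (0.992) and Rhpn2 (0.991). For Hbegf they were Tuft1 (r = 0.959), Mboat1 (0.946) and Fam107b (0.943), for Tgfa Atp6v1a (0.982), Rab10 (0.980) and Igf2r (0.976), and for Btc Lamtor3 (0.949), Macc1 (0.936) and Galnt3 (0.934). Erbb3 was nearest to Kif13b (r = 0.988), Dusp16 (0.986) and Nlrc4 (0.986), Erbb2 to Mapkap1 (0.980), Tbc1d13 (0.979) and Rbm47 (0.977), and Egfr to Nadk (0.875) and Tsc22d2 (0.867). Lrig1 had the lowest best value, with Hopx (r = 0.810), Slc39a8 (0.808) and Barx2 (0.795). Errfi1 was nearest to Kctd9 (r = 0.897), Agfg1 (0.896) and Fam91a1 (0.895).

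The remaining members lie as follows on GRCm38 in the GENCODE M21 annotation. Tgfa (ENSMUSG00000029999) is at 86195223 to 86275719 on chromosome 6, and Egfr (ENSMUSG00000020122) at 16752203 to 16918158 and Erbb2 (ENSMUSG00000062312) at 98412470 to 98437716 on chromosome 11, all on the plus strand. Erbb3 (ENSMUSG00000018166) is at 128567523 to 128589652 on the minus strand of chromosome 10, and Errfi1 (ENSMUSG00000028967) at 150853919 to 150868892 on the plus strand of chromosome 4. Hbegf (ENSMUSG00000024486) is on the minus strand of chromosome 18.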

How the data were processed

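RNA was measured in 88 libraries, 22 per genotype, of the 96 that the labels name. The authors deposited TPM in 1 table per genotype. STAR 2.5, RSEM 1.3.0 and the GRCm38 build are named, with no roles, by the submitters' processing notes. Libraries were directional, per the labels' protocols. The counts of uniquely mapped reads and the percent of unmapped reads come from the alignment table the authors deposited.

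Levels were compared on log2(TPM + 1) in limma 3.58.1 (R 4.3.3, variance trend) with time point as a factor, over genes whose mean reached 1 TPM in at least 1 genotype compared. All 10 members passed this filter in every comparison. The interaction used all 88 libraries. Rhythm was an F test of cosine and sine terms of 24 h, and trend a linear term, within a genotype. Fold changes are on the log2(TPM + 1) scale, which understates low genes. Calls are at a Benjamini-Hochberg adjusted p under 0.05 over all genes tested, and all adjusted p-values are from limma. Fits were tested on simulated data.

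The members and lists were chosen with earlier results of these data known. Named pathway genes are up to 4 per list and comparison that passed and differed most. Likeness is Pearson's r of log2(TPM + 1), with the 3 highest genes per member, without pseudogenes and Gm and Rik symbols, and 1 of these genes is not reported here. Alternatives were other pseudocounts, filters and scaling, library sets, left-out libraries and other time terms. Depth and the pair of doubted libraries are given with the results.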

Additional observations from a re-analysis of the deposited data

Results flagged for a closer look

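The effect of Bmal1 loss differed between Apc wild-type and Apc-min organoids by the interaction test in limma for 6 genes, given as the log2 effect on the Apc-min background minus that on the wild-type background. It was 1.35 for Areg, 1.65 for Ereg, 0.68 for Btc, 0.55 for Lrig1 and 0.23 for Hbegf, all more positive, and -0.29 for Tgfa. Of all 13846 genes tested, 18.1% were called more positive and 29.6% more negative. The Tgfa call ended without any 1 of 39 of the 88 libraries. With library set means as units, Areg alone passed.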

How the results depend on the processing

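Over the 10 members and 15 comparisons, 6405 of 6608 recomputed values kept their direction and side of the threshold, 132 lost a call, 71 gained one, and no called value changed sign. Members called moved by over 1.5 times as follows. Rescaled libraries gave 1 for Bmal1 loss in Apc wild-type organoids (0 as reported), 3 for rhythm and 3 for trend in Apc-min organoids (1 and 1), and 0 for rhythm in Apc-min Bmal1-null and for trend in control organoids (1 and 1). The library set as a term gave 1 for rhythm in control (0), 2 for rhythm in Apc-min (1), 2 for trend in control (1) and 4 for trend in Apc-min organoids (1). Lower-numbered libraries alone gave 0 for both rhythm calls and for trend in control and Apc-min organoids, and higher-numbered ones 0 for rhythm in Apc-min and trend in control and 5 for trend in Apc-min organoids. A linear term gave 0 for both rhythm calls, and the last 6 against the first 6 time points gave 1 for trend in Apc-min Bmal1-null organoids (2). Without the doubted pair, rhythm in Apc-min Bmal1-null gave 2, and trend 5 in the same genotype and 3 in Apc-min organoids. Over all genes, rhythm calls then went from 1513 to 401 in Apc-min and from 316 to 1444 in the other genotype, and trend calls there from 1030 to 2125. Set means, chosen after seeing the data, gave 1 for Bmal1 loss in Apc-min organoids (8), 5 for Apc-min in Bmal1 wild-type organoids (9) and 1 for the interaction (6), with fewer units. Other causes were not tested. Leaving out 1 library gave 0 to 1 for Bmal1 loss in Apc wild-type, 7 to 8 for Bmal1 loss in Apc-min organoids, 9 and 8 to 10 for Apc-min with and without Bmal1, 5 to 6 for the interaction, 1 to 3 for rhythm in Apc-min, 1 to 2 for rhythm in Apc-min Bmal1-null, 0 to 2 for trend in control, 0 to 1 in Bmal1-null, 2 to 5 in Apc-min Bmal1-null and 1 to 3 in Apc-min organoids. The quantile-normalized tables were not run, since their columns do not name the genotype. No paired analysis was possible because replicate numbers, given in accession order, pair no libraries across genotypes; the library set was a term instead.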
